A study of Mus musculus with 8 samples.

Results

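The 29 genes described here cover the making, sensing, movement and disposal of cholesterol, and were taken by symbol from the 55573 gene IDs counted in each library. They are 18 enzymes of synthesis, 5 genes of sterol sensing (Srebf1, Srebf2, Scap, Insig1 and Insig2), 4 genes of uptake and efflux (Lrp1, Abca1, Abcg1 and Apoe), and 2 genes of storage and turnover (Soat1 and Cyp46a1). All 29 passed the filter on low counts. RNA-seq was done on total RNA of flow-sorted cortical cells, labelled parvalbumin-positive interneurons, from mice on a C57BL/6 background, in 4 groups of 2 libraries. The KO groups carried PV-Cre, the tdTomato reporter and Dnmt1 loxP2 alleles, at 18 and at 6 months of age, and the WT groups carried PV-Cre, the tdTomato reporter and wild-type Dnmt1 at the same ages. All animals therefore shared the Cre driver at the parvalbumin locus and the reporter, and the floxed allele, with loxP sites around exons 4 and 5, came from a stock of mixed B6;129Sv origin. Cells of 1 cortical hemisphere per mouse were pooled from 6 KO and 6 WT mice, and the design text calls the 2 replicates of a group technical, so p-values measure the spread between such libraries and not between animals.

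Cholesterol in the brain is made locally, because circulating lipoproteins do not cross the blood-brain barrier. Acetyl-CoA is built into mevalonate and isoprenoids, these are joined into squalene, and squalene is closed into lanosterol and trimmed to cholesterol. When sterol is low, Scap escorts the SREBP transcription factors (genes Srebf1 and Srebf2) out of the endoplasmic reticulum and they switch on the synthesis genes, while the Insig proteins hold them back when sterol is high. Oligodendrocytes place much of the sterol in myelin, astrocytes export it on apolipoprotein E particles through Abca1 and Abcg1, Lrp1 takes such particles up, Soat1 esterifies sterol for storage, and neurons clear the excess by hydroxylation through Cyp46a1.

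The upstream sequences of 5 members are shown because these genes moved in different directions, as described below: Hmgcs1, Ebp, Msmo1 and Hsd17b7 share a promoter motif, and Abca1 is given as a transport gene without it. Each is the 250 bases before a RefSeq start on GRCm38.p6, read along the gene's strand, with CCAAT (the box bound by NF-Y, on either strand, so also as ATTGG) and TCACNCCAC (a form of the sterol regulatory element bound by SREBP) in capitals.
Hmgcs1, chr13:119690101-119690350, + strand: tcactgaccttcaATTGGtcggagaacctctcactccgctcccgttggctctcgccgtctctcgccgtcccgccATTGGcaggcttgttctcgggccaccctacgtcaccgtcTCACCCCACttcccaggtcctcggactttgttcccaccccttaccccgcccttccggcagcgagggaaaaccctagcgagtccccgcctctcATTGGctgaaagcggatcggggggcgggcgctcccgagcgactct
Ebp, chrX:8193513-8193762, - strand: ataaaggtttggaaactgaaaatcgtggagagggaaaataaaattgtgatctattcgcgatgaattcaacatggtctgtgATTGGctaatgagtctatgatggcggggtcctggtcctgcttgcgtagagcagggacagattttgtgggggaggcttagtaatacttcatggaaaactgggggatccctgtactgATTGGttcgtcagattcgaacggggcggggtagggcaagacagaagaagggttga
Msmo1, chr8:64733579-64733828, - strand: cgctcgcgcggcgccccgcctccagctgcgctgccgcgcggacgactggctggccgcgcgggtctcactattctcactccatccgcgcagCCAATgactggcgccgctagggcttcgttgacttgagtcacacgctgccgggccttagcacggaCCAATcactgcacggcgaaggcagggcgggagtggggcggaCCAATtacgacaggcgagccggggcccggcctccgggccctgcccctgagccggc
Hsd17b7, chr1:169969206-169969455, - strand: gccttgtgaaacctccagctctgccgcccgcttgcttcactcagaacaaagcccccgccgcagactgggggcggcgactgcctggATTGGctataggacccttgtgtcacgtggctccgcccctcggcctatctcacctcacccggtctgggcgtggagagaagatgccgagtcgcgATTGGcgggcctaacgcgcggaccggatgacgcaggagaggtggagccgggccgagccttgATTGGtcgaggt
Abca1, chr4:53159896-53160145, - strand: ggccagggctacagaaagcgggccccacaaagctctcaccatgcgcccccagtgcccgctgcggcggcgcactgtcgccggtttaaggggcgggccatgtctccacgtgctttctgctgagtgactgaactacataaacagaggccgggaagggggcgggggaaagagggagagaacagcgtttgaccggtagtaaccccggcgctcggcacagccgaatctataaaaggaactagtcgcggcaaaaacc
CCAAT was found in 21 of the 35 windows of the 25 members with a RefSeq start (60%), against 33.8% of all 32536 windows of this length. By gene it was found upstream of 14 of the 15 synthesis enzymes with a window, all but Acat2, and of none of Lrp1, Abca1 and Apoe. Abcg1 had no window, and Soat1 and Cyp46a1 also carried CCAAT. Some genes had several windows, so no share of all genes matches these counts by gene. TCACNCCAC was found upstream of 1 member, Hmgcs1, at position -137 from the start, and in 1.04% of all windows. CACGTG was found in 6 member windows (17.1%, against 6.04% of all) and GGGCGG in 25 (71.4%, against 33%). A strict form of the liver X receptor element, an exact direct repeat of AGGTCA with 4 bases of any kind between, was found in 0. Of all windows 0.0154% held it. Inexact repeats were not searched, so this does not show that such elements are absent from the members. All motifs were searched on both strands, and no motif contains another. Hmgcs1 and Ebp, which rose in KO at 6 months, carried CCAAT. So did Msmo1 and Hsd17b7, which fell, though the call of Hsd17b7 was lost in 6 of 14 alternative analyses. These matches describe letters in the windows and do not show binding.

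The libraries held 6008175 to 13551218 counts, and levels are given as CPM, counts scaled to a common library total. Pvalb, the gene that names the labelled cells, was counted with 6 reads in all 8 libraries together, never more than 2 in one library, and the largest marker sums were those of oligodendrocytes and astrocytes. Dnmt1 averaged 75.4 ± 1.64 CPM in KO and 80.9 ± 0.217 CPM in WT at 18 months, and 76.2 ± 1.39 CPM in KO and 101 ± 4.03 CPM in WT at 6 months (SD, n = 2); counts over the whole gene do not separate the exons between the loxP sites. The libraries of WT at 6 months stood apart, correlating with those of other groups at r = 0.9 to 0.951 across genes (log2 CPM), against 0.976 with each other, and every comparison that uses this group rests on them. They also had the lowest totals (6008175 and 6024905 counts) and the lowest correlation between replicates of the 4 groups. The part of depth in these correlations was not tested. The 14 oligodendrocyte markers, such as Mbp and Mog, summed to 28719 to 29172 CPM in KO and 42433 to 42461 CPM in WT at 18 months, and to 31522 to 32389 CPM in KO and 14644 to 14662 CPM in WT at 6 months. The 12 astrocyte markers, such as Aqp4 and Slc1a2, summed to 9060 to 9074 CPM in KO and 4177 to 4210 CPM in WT at 18 months, and to 7372 to 7375 CPM in KO and 12188 to 12202 CPM in WT at 6 months. Of the other 8 marker lists, those of oligodendrocyte precursors, parvalbumin interneurons, GABA neurons, excitatory neurons and endothelium had their largest sums in WT at 6 months, those of pericytes and blood in KO at 6 months, and that of microglia in WT at 18 months. None of the 89 markers was at 0 in all libraries. In such bulk RNA, fewer cells of a type and less RNA per cell cannot be told apart.

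**Figure D1:**
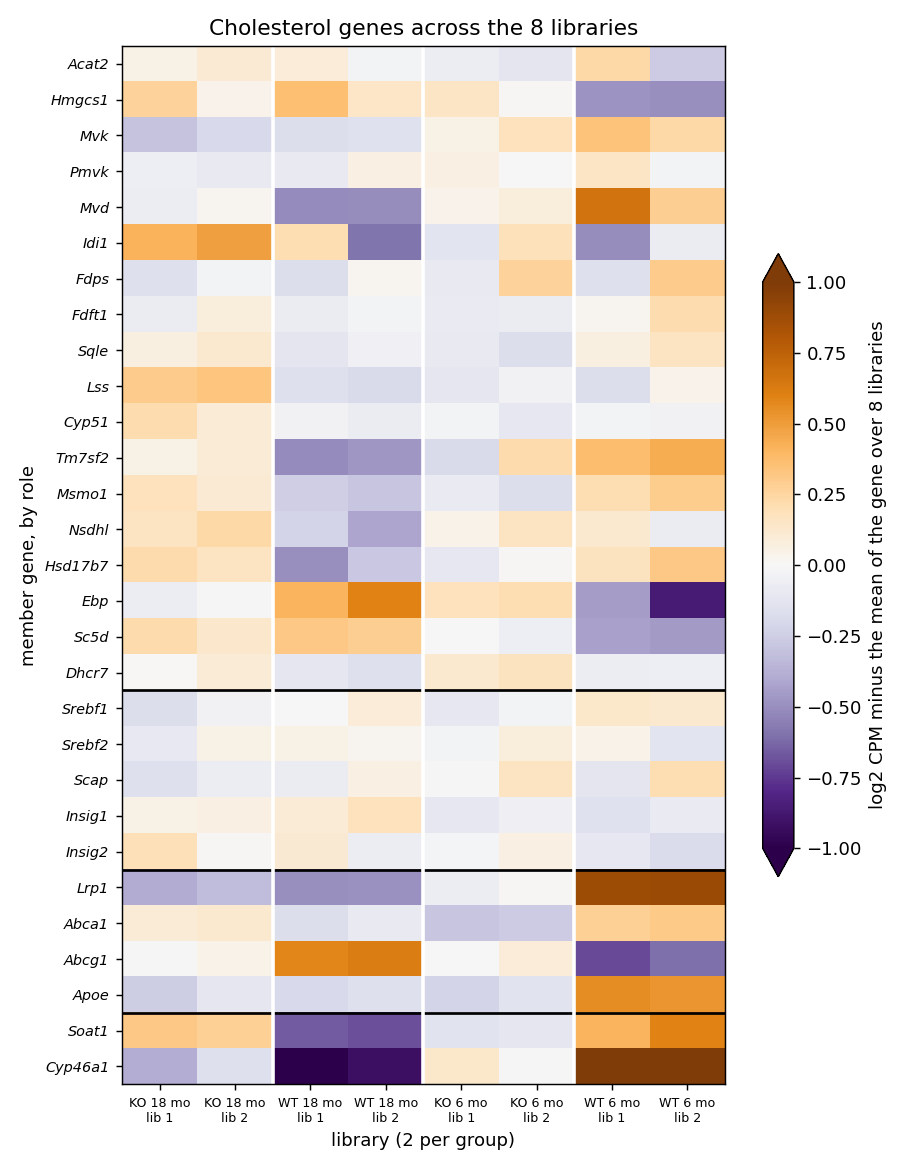
Each row is a member gene, ordered by role from synthesis to turnover with black lines between roles, and each column 1 of the 8 libraries. Colour gives log2 CPM minus the gene's own mean over the libraries, with values beyond ±1 shown at the end of the scale. Lrp1, Apoe and Cyp46a1 were highest in both WT libraries at 6 months, Abcg1 in both WT libraries at 18 months, and the sterol sensing genes stayed close to their means.

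Levels between genes were set side by side per length, as CPM per kilobase of exon, in group means. Apoe, the main lipid carrier protein of the brain, was by far the highest member in every group, at 549 (KO) and 553 (WT) per kilobase at 18 months and 550 (KO) and 907 (WT) at 6 months. Lrp1, the large endocytic receptor of such particles, had 53.2 (KO) and 48.4 (WT) per kilobase at 18 months and 66.8 (KO) and 126 (WT) at 6 months. Among the synthesis enzymes Msmo1, a methyl sterol oxidase, and Hmgcs1, the HMG-CoA synthase, were the highest in every group but WT at 6 months, where Cyp51 (25.7) and Mvd (25) also stood above Hmgcs1. Msmo1 had 41.9 (KO) and 31.5 (WT) per kilobase at 18 months and 34.7 (KO) and 45 (WT) at 6 months. Hmgcs1 had 38.5 (KO) and 41.5 (WT) per kilobase at 18 months and 36.7 (KO) and 24.7 (WT) at 6 months. Hmgcs1 was thus above Msmo1 in KO at 6 months and WT at 18 months, and below it in the other groups. Idi1, the isomerase that makes the reactive isoprenoid unit, was lowest, with 0.769 to 1.27 in the group means, and Fdps (farnesyl diphosphate synthase) next with 2.83 to 3.22. Part of the exons of Fdps (26.7%) overlaps Gm43738 on the same strand, so its level and rank are uncertain. Idi1 was counted with only 14 to 57 reads in a library, and its differences were imprecise.

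At 18 months the comparison of KO with WT asked how sterol genes differ in old animals when Dnmt1 is targeted in parvalbumin cells. The synthesis enzymes Mvd, Lss, Cyp51, Tm7sf2, Msmo1, Nsdhl and Hsd17b7 were higher in KO, together with the receptor Lrp1, the storage enzyme Soat1, the efflux pump Abca1 and the sterol hydroxylase Cyp46a1, while the isomerase Ebp and the efflux pump Abcg1 were lower. Of the 29 members 11 rose and 2 fell (44.8%), where 14.7% of the 18205 genes tested rose and 17.4% fell (32.1% together). The median log2 fold change of the members was 0.10, and that of all genes 0. Changes are log2 fold changes of KO over WT from edgeR's quasi-likelihood test, called at an adjusted p under 0.05 over all genes.

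Of the 18 synthesis enzymes 7 rose and 1 fell at 18 months, with a median log2 fold change of 0.18. Lss, which closes the squalene chain into lanosterol, had 145 and 148 CPM in KO, against 106 and 103 CPM in WT. Both KO libraries were above both WT libraries, and the change was log2 0.48 (SE 0.0676, edgeR adjusted p = 4.65e-06). With 2 libraries per group such separation is weak evidence by itself, here and below, and its share over all genes was not counted. Msmo1, which removes methyl groups from the sterol ring, had 263 and 251 CPM in KO, against 196 and 191 CPM in WT (log2 0.41, edgeR adjusted p = 6.94e-06). Its groups did not overlap either. Hsd17b7, a ketosteroid reductase of the same demethylation steps, had 45.7 and 43.7 CPM in KO, against 27.7 and 32.3 CPM in WT (log2 0.56, edgeR adjusted p = 9.3e-05). Nsdhl, the dehydrogenase that works between them, had 35.5 and 37.4 CPM in KO, against 27.3 and 23.9 CPM in WT (log2 0.52, edgeR adjusted p = 0.000491). The demethylation enzymes Msmo1, Nsdhl and Hsd17b7 were thus all higher in KO.

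Tm7sf2, a sterol reductase acting just after the first demethylation, had 25.5 and 26.4 CPM in KO, against 17.3 and 17.8 CPM in WT (log2 0.56, edgeR adjusted p = 0.00126). Part of its exons (12.1%) overlaps Vps51 on the same strand. Mvd, which makes isopentenyl diphosphate, was the one enzyme called from the steps before squalene, with 31.7 and 33.7 CPM in KO, against 23.2 and 23.4 CPM in WT (log2 0.49, edgeR adjusted p = 0.00177). Cyp51, the lanosterol demethylase, had 135 and 124 CPM in KO, against 113 and 110 CPM in WT (log2 0.22, edgeR adjusted p = 0.0115). Its call was lost in 3 of 14 alternatives: DESeq2 (adjusted p = 0.0683), and without KO replicate 1 (log2 0.15) or WT replicate 2 (log2 0.22) at 18 months. Ebp, the isomerase that shifts the ring double bond, went the other way, with 22.5 and 23.4 CPM in KO, against 31.3 and 35.6 CPM in WT (log2 -0.56, edgeR adjusted p = 0.000533). The 10 enzymes not called had log2 fold changes from -0.11 for the desaturase Sc5d to 0.66 for Idi1, whose 95% interval ran from 0.07 to 1.25 at an edgeR adjusted p of 0.0825.

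Among the genes that move or store sterol, Soat1 differed most at 18 months. It had 148 and 144 CPM in KO, against 75 and 73.4 CPM in WT, a 1.97-fold higher level (log2 0.98, SE 0.0683, edgeR adjusted p = 9.35e-11). Cyp46a1 had 17.8 and 20.9 CPM in KO, against 11.3 and 12.3 CPM in WT (log2 0.70, edgeR adjusted p = 0.000204). Both genes were higher in each KO library than in either WT library, a separation whose share over all genes was not counted. The efflux pumps moved apart: Abca1 had 400 and 407 CPM in KO, against 332 and 351 CPM in WT (log2 0.24, edgeR adjusted p = 0.00114), whereas Abcg1, which loads sterol onto larger particles, had 300 and 312 CPM in KO, against 452 and 464 CPM in WT (log2 -0.58, edgeR adjusted p = 2.56e-08). Apoe had 1119 and 1229 CPM in KO, against 1164 and 1199 CPM in WT, overlapping groups with a log2 fold change of -0.01 and a 95% interval from -0.12 to 0.10. Lrp1 had 920 and 965 CPM in KO, against 854 and 860 CPM in WT, a small rise (log2 0.14, edgeR adjusted p = 0.0384). That call was lost in 7 of 14 alternatives, among them the size factors of DESeq2 (edgeR adjusted p = 0.0567) and the pairwise fit (0.0656). It was also lost without KO replicate 2 (log2 0.10), WT replicate 1 (0.14) or WT replicate 2 (0.16) at 18 months. Leaving out WT replicate 1 or 2 of 6 months lost it too (log2 0.14 each). At this age 0 of 14 oligodendrocyte markers rose and 14 fell in KO, and 12 of 12 astrocyte markers rose and 0 fell. Other lists shifted too, among them microglia (0 of 10 rose and 9 fell) and GABA neurons (1 of 7 rose and 2 fell). Over all 86 markers tested 23 rose and 42 fell. The part of any of these markers in the differences of the members was not tested.

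At 6 months the same comparison was made in younger adults. Here the efflux pump Abca1, the lipid carrier Apoe, the receptor Lrp1, Soat1 and Cyp46a1 were all lower in KO, Abcg1 was higher, and the synthesis enzymes were divided. Of the 29 members 5 rose and 12 fell (58.6%), where 19.2% of all genes tested rose and 19.6% fell (38.8% together). The median log2 fold change of the members was -0.04, against -0.005 for all genes. Without KO replicate 1 or WT replicate 2 of this age fewer members were called, and fewer genes were called over all genes as well.

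Lrp1 had 1153 and 1216 CPM in KO, against 2220 and 2228 CPM in WT at 6 months, a 1.88-fold lower level (log2 -0.91, SE 0.0504, edgeR adjusted p = 7.71e-13). Apoe had 1140 and 1211 CPM in KO, against 1961 and 1917 CPM in WT (log2 -0.72, edgeR adjusted p = 1.08e-10). Abca1 had 307 and 311 CPM in KO, against 452 and 464 CPM in WT (log2 -0.57, edgeR adjusted p = 1.01e-08). In each of these genes the KO libraries lay well below the WT libraries. Abcg1 had 301 and 322 CPM in KO, against 185 and 199 CPM in WT, and so rose 1.62-fold (log2 0.70, edgeR adjusted p = 1.84e-09). Soat1 had 108 and 110 CPM in KO, against 158 and 180 CPM in WT (log2 -0.63, edgeR adjusted p = 8.07e-08). Cyp46a1 had 25.5 and 23 CPM in KO, against 51.9 and 53.6 CPM in WT, the largest fold of any member in this comparison at 2.17-fold lower (log2 -1.12, SE 0.116, edgeR adjusted p = 3.06e-08). None of these genes had overlapping groups. That is weak evidence by itself with 2 libraries per group, and its share over all genes was not counted.

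Of the 18 synthesis enzymes 4 rose and 6 fell at 6 months, with a median log2 fold change of -0.03. Ebp rose most, with 26.7 and 27.2 CPM in KO, against 17.3 and 13 CPM in WT (log2 0.83, SE 0.144, edgeR adjusted p = 5.34e-05). Hmgcs1, which commits acetoacetyl-CoA to the mevalonate path, had 177 and 160 CPM in KO, against 114 and 113 CPM in WT (log2 0.57, edgeR adjusted p = 6.05e-06). An antisense transcript, Gm48342, shares 12.1% of its exon bases. Sc5d, the desaturase near the end of the path, had 105 and 101 CPM in KO, against 77.9 and 76.5 CPM in WT (log2 0.41, edgeR adjusted p = 6.03e-05). The KO libraries of these 3 enzymes were above the WT libraries without overlap, again with no share over all genes counted. Msmo1 was lower, with 220 and 207 CPM in KO, against 268 and 285 CPM in WT (log2 -0.37, edgeR adjusted p = 2.41e-05).

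The remaining calls at 6 months were each lost when at least 1 library was left out. Mvd had 34 and 35.1 CPM in KO, against 52.3 and 40.4 CPM in WT (log2 -0.42, edgeR adjusted p = 0.00495), and was not called without KO replicate 1 (0.0501) or WT replicate 1 (0.188, with log2 -0.22), over alternatives of 0.000555 to 0.188. Tm7sf2 had 21.6 and 28.8 CPM in KO, against 31.9 and 33.5 CPM in WT (log2 -0.38, edgeR adjusted p = 0.0248). Its call was lost in 5 of 14 alternatives, among them DESeq2 (adjusted p = 0.123) and no filter on low counts (edgeR adjusted p = 0.0538). It was also lost without KO replicate 1 (log2 -0.18), WT replicate 1 (-0.40) or WT replicate 2 (-0.34). Without KO replicate 2 its log2 fold change was -0.57. Its KO libraries differed from each other more than 1 of them did from WT. Hsd17b7 had 36.3 and 39.4 CPM in KO, against 43.9 and 48.7 CPM in WT (log2 -0.29, edgeR adjusted p = 0.0314). Its call was lost in 6 of 14 alternatives, among them DESeq2 (adjusted p = 0.144) and no filter on low counts (edgeR adjusted p = 0.0973). It was also lost without KO replicate 1 (log2 -0.23), KO replicate 2 (-0.33), WT replicate 2 (-0.21), or WT replicate 1 of 18 months (-0.27). Sqle, the squalene epoxidase, had 81.8 and 77.6 CPM in KO, against 91.4 and 97.5 CPM in WT (log2 -0.24, edgeR adjusted p = 0.0123). Its call was lost in 4 of 14 alternatives: DESeq2 (adjusted p = 0.0688), no filter on low counts (edgeR adjusted p = 0.0636), and without KO replicate 2 (log2 -0.18) or WT replicate 2 (log2 -0.19). The groups of both enzymes did not overlap (share over all genes not counted), and the differences were 1.22-fold for Hsd17b7 and 1.18-fold for Sqle.

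Fdft1, the squalene synthase, had 76.3 and 76.8 CPM in KO, against 82.6 and 94.2 CPM in WT at 6 months (log2 -0.21, edgeR adjusted p = 0.0492). Its call was lost in 10 of 14 alternatives, with adjusted p from 0.022 to 0.443, among them those without KO replicate 1 (0.177), KO replicate 2 (0.193), WT replicate 2 (0.443, with log2 -0.11), or WT replicate 1 (0.103) or 2 (0.095) of 18 months. Its exons also overlap the abundant cathepsin gene Ctsb on the other strand over 18.3% of their bases. Dhcr7, the reductase of the last step, had 75.4 and 77.8 CPM in KO, against 66.3 and 66.4 CPM in WT (log2 0.21, edgeR adjusted p = 0.0433). Its call was lost in 6 of 14 alternatives, among them DESeq2 (adjusted p = 0.121) and the pairwise fit (edgeR adjusted p = 0.052). It was also lost without KO replicate 1 (log2 0.23), or without KO replicate 2, WT replicate 1 or WT replicate 2 (0.21 each). Srebf1 had 369 and 391 CPM in KO, against 437 and 432 CPM in WT (log2 -0.19, edgeR adjusted p = 0.0113), and was not called without KO replicate 1 (0.153), WT replicate 1 (0.0781) or WT replicate 2 (0.0522), over alternatives of 0.00203 to 0.153. At this age 14 of 14 oligodendrocyte markers rose and 0 fell in KO, and 0 of 12 astrocyte markers rose and 12 fell. Other lists shifted too, among them GABA neurons (0 of 7 rose and 7 fell) and blood (7 of 7 rose). Over all 86 markers tested 31 rose and 32 fell. The part of any of these markers in the differences of the members was not tested.

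**Figure D2:**
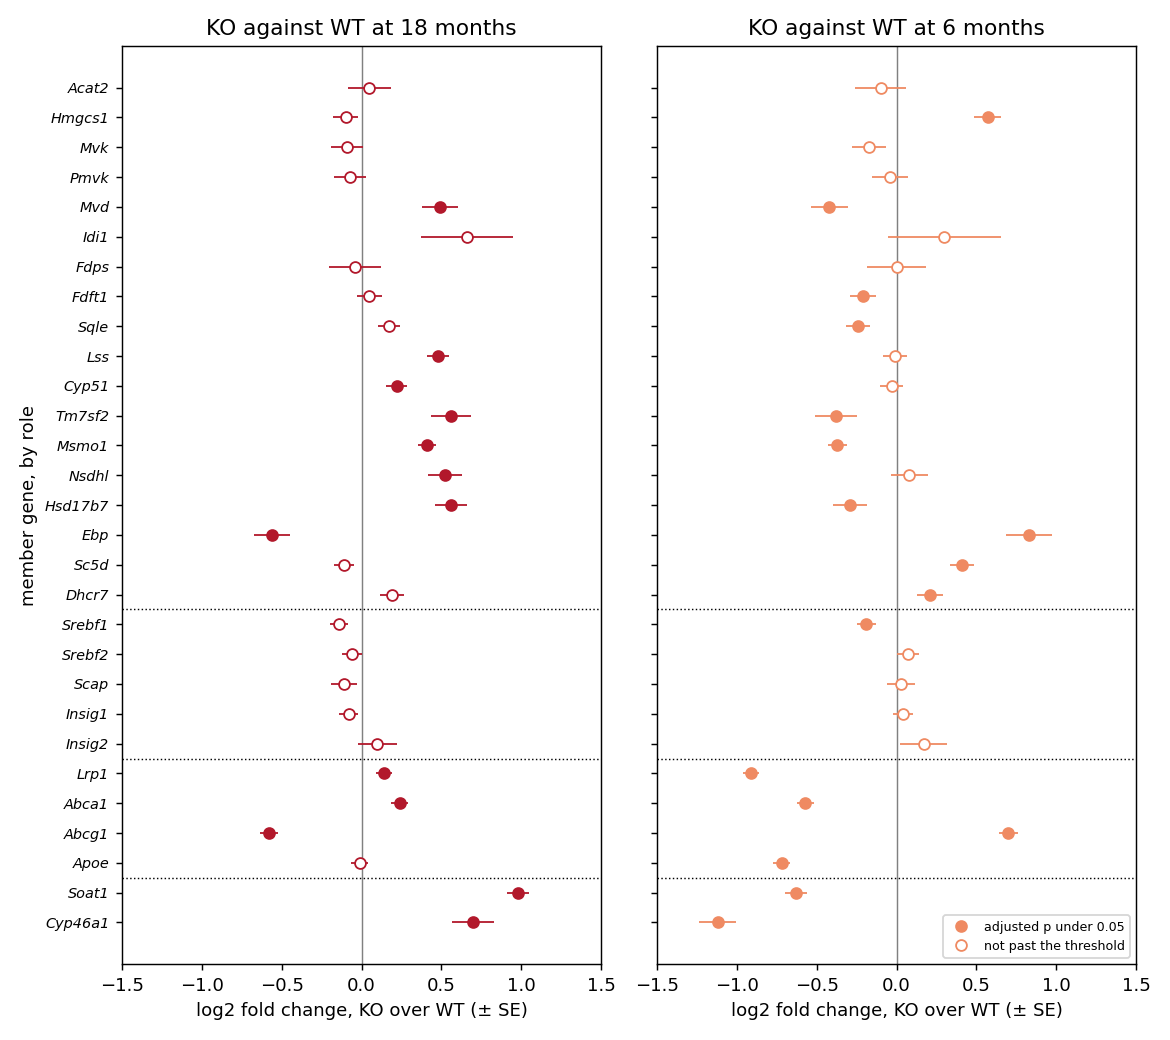
Points give the log2 fold change of KO over WT for each member at 18 months (left) and at 6 months (right), with bars of 1 SE and filled points for an adjusted p under 0.05. Dotted lines separate synthesis, sensing, transport, and storage and turnover. Msmo1 stands at 0.41 on the left and -0.37 on the right, Ebp at -0.56 and 0.83, and Soat1 at 0.98 and -0.63.

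The genotype comparisons of the 2 ages share no library, and their directions were opposite for every member called in both. These 10 members were Mvd, Tm7sf2, Msmo1, Hsd17b7, Ebp, Lrp1, Abca1, Abcg1, Soat1 and Cyp46a1. Over all genes tested, 3390 were called in both, and 76.7% of those were opposite. The difference between the ages was tested as an interaction, the log2 fold change at 18 months minus that at 6 months. It was called for 17 of the 29 members (58.6%), 13 of them positive and 4 negative, where 18.4% of all genes were positive and 20.7% negative (39.1% together). Cyp46a1 had the largest interaction (1.81, SE 0.175, edgeR adjusted p = 7.53e-09), followed by Soat1 (1.61, edgeR adjusted p = 2.04e-12) and, in the other direction, by Ebp (-1.39, edgeR adjusted p = 1.24e-06) and Abcg1 (-1.28, edgeR adjusted p = 8.44e-12). The interaction uses the same libraries as the genotype comparisons. Lss, Cyp51 and Nsdhl, called at 18 months and not at 6 months, had interactions of 0.49 (edgeR adjusted p = 0.000303), 0.25 (0.0422) and 0.44 (0.0297). The call of Cyp51 was lost without any 1 of the 8 libraries except KO replicate 2 of 18 months, with adjusted p from 0.0192 to 0.206 over the alternatives. That of Nsdhl was lost without KO replicate 1 (0.126) or WT replicate 1 (0.147) of 6 months, or KO replicate 2 (0.0874) or WT replicate 2 (0.175) of 18 months, over alternatives of 0.019 to 0.175.

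Few of the sterol sensing genes were called. Of Srebf1, Srebf2, Scap, Insig1 and Insig2, 0 were called at 18 months, 1 fell at 6 months (Srebf1, above), and 0 had a called interaction, where 32.1%, 38.8% and 39.1% of all genes were called; with 5 genes these counts are not read as a difference from other genes. Srebf2, whose product drives the cholesterol genes, had 241 and 267 CPM in KO, against 268 and 262 CPM in WT at 18 months, and 254 and 274 CPM in KO, against 266 and 236 CPM in WT at 6 months. The groups overlapped at both ages, and the 95% intervals of its log2 fold change were -0.20 to 0.07 and -0.07 to 0.21. Insig1, itself a gene that SREBP switches on, had 194 and 195 CPM in KO, against 200 and 211 CPM in WT at 18 months, and 174 and 181 CPM in KO, against 169 and 177 CPM in WT at 6 months. Its intervals were -0.20 to 0.04 and -0.09 to 0.17. Scap, the escort, ranged from 94.1 to 121 CPM over the libraries and Insig2 from 16.1 to 20.9 CPM. These intervals bound the differences but do not show that the groups were alike.

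Synthesis enzymes and transport genes were set against each other within each library, as the mean log2 CPM of the 18 enzymes minus that of Lrp1, Abca1, Abcg1 and Apoe. Gene length is the same in every library and drops out of a difference between groups. The value was -3.64 and -3.69 in KO, against -3.87 and -3.94 in WT at 18 months. At 6 months it was -3.73 and -3.74 in KO, against -4.1 and -4.14 in WT. KO thus stood above WT at both ages, by 0.24 at 18 months and by 0.39 at 6 months, with no test because the members were chosen with results known. The mean log2 CPM of the enzymes at 18 months was 5.58 and 5.59 in KO, against 5.41 and 5.38 in WT, and that of the transport genes 9.21 and 9.28 in KO, against 9.28 and 9.32 in WT. At 6 months the enzymes had 5.48 and 5.54 in KO, against 5.5 and 5.49 in WT, and the transport genes 9.21 and 9.28 in KO, against 9.6 and 9.63 in WT. These means run over members that went both ways, since 3 of the 4 transport genes were called at 18 months (2 higher and 1 lower) and 10 of the 18 enzymes at 6 months (4 higher and 6 lower). With Soat1 and Cyp46a1 counted among the transport genes, the difference at 18 months turned to -0.06 and that at 6 months grew to 0.55. The summed CPM of the 18 enzymes at 18 months was 1334 ± 22.5 in KO and 1180 ± 20.5 in WT. At 6 months it was 1203 ± 11.8 in KO and 1226 ± 17.9 in WT (SD, n = 2 throughout).

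**Figure D3:**
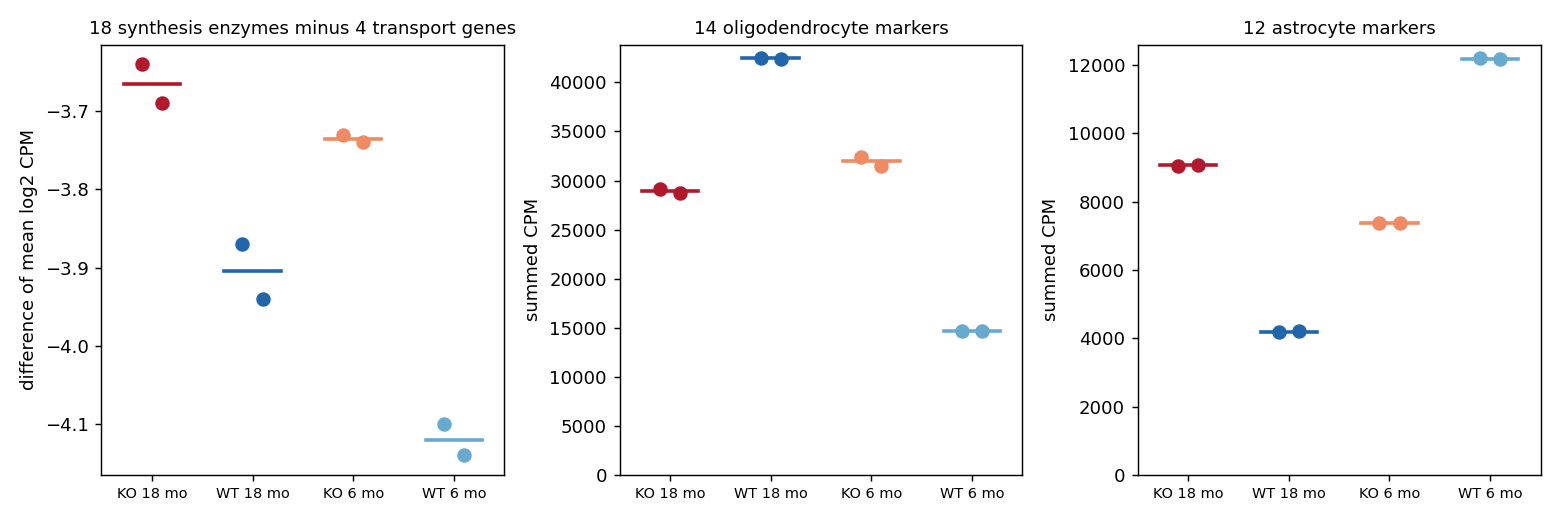
Points are libraries and lines group means, with KO left of WT within each age. The left panel gives mean log2 CPM of 18 synthesis enzymes minus that of 4 transport genes, and the others the summed CPM of oligodendrocyte and astrocyte markers. The left value was above WT in KO at both ages, whereas the marker sums of KO lay between those of WT at 18 and at 6 months.

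Age was compared within each genotype, on libraries that the genotype comparisons also use. In WT at 18 against 6 months, the 5 members of largest fold change came from several roles: Cyp46a1 fell 4.43-fold, Lrp1 2.60-fold and Soat1 2.28-fold, while Abcg1 rose 2.39-fold and Ebp 2.23-fold (the levels are given above). Of the 29 members 5 rose and 12 fell (58.6%), where 28.2% of all genes rose and 30.8% fell (59.0% together), so the share called was at the background. The 5 that rose were Hmgcs1, Ebp, Sc5d, Insig1 and Abcg1. The 12 that fell were Mvk, Mvd, Sqle, Tm7sf2, Msmo1, Nsdhl, Hsd17b7, Lrp1, Abca1, Apoe, Soat1 and Cyp46a1. Mvk, mevalonate kinase, had 29.7 and 30.3 CPM at 18 months, against 42.3 and 39.3 CPM at 6 months (log2 -0.44, edgeR adjusted p = 0.00102). The call of Sqle (log2 -0.19, edgeR adjusted p = 0.0287) was lost in 8 of 14 alternatives, among them DESeq2 (adjusted p = 0.235). It was also lost without WT replicate 2 (log2 -0.14) or KO replicate 2 (-0.18) of 6 months or WT replicate 1 of 18 months (-0.14). The call of Nsdhl (log2 -0.35, edgeR adjusted p = 0.0139) was lost in 4 of 14 alternatives, among them DESeq2 (adjusted p = 0.13). The others were no filter on low counts (edgeR adjusted p = 0.0511) and leaving out WT replicate 1 of 6 months or WT replicate 2 of 18 months (log2 -0.24 each). Of the markers, 14 of 14 of oligodendrocytes rose and 12 of 12 of astrocytes fell with age in WT. Those of GABA neurons fell too (7 of 7), and over all 86 markers tested 25 rose and 48 fell. The part of these markers was not tested.

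In KO the members differed less with age. Of the 29, 7 rose and 3 fell at 18 against 6 months (34.5%), where 13.8% of all genes rose and 17.9% fell (31.7% together), again near the background. Among the called members of largest change were Soat1, with 148 and 144 CPM at 18 months, against 108 and 110 CPM at 6 months (log2 0.42, edgeR adjusted p = 3.57e-05), and Lss, with 145 and 148 CPM, against 109 and 115 CPM (log2 0.39, edgeR adjusted p = 0.000107). Abca1 rose too, with 400 and 407 CPM, against 307 and 311 CPM (log2 0.39), and Lrp1 fell, with 920 and 965 CPM, against 1153 and 1216 CPM (log2 -0.33). Msmo1, Sqle, Cyp51 and Sc5d rose by log2 0.21 to 0.27, and Mvk and Cyp46a1 fell (log2 -0.36 and -0.33). Calls of Mvk, Sqle, Cyp51, Sc5d and Cyp46a1 were lost in some alternatives, all 5 without KO replicate 2 of 6 months (edgeR adjusted p = 0.137, 0.174, 0.143, 0.146 and 0.0769 in that order of genes). Without KO replicate 1 of 18 months Mvk (0.0998), Cyp51 (0.169), Sc5d (0.151) and Cyp46a1 (0.361, with log2 -0.21) were lost, without KO replicate 2 of 18 months Sqle (0.0873), and without KO replicate 1 of 6 months Cyp46a1 (0.263). Their lowest adjusted p over the alternatives were 0.00451 for Mvk, 0.00758 for Sqle, 0.00288 for Cyp51, 0.00456 for Sc5d and 0.0263 for Cyp46a1. With DESeq2 6 members were called, where 3449 of 18450 genes were called, against 5775 of 18205 in the main test. Fewer members, and fewer of all genes, were also called without KO replicate 2 of 6 months or KO replicate 1 of 18 months. Apoe showed no detectable difference, with a 95% interval from -0.11 to 0.11. Of the markers, 2 of 14 of oligodendrocytes rose and 8 fell with age in KO, and 8 of 12 of astrocytes rose and 0 fell. Of 7 GABA neuron markers 1 rose and 5 fell, and over all 86 markers tested 11 rose and 50 fell. The part of these markers was not tested.

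The members were spread over many orders of highest and lowest group mean, and only some of these are described here. WT at 6 months was highest and WT at 18 months lowest for Mvd, Tm7sf2, Msmo1, Hsd17b7, Lrp1, Soat1 and Cyp46a1, and the reverse held for Hmgcs1, Ebp, Sc5d, Srebf2, Insig1 and Abcg1. The summed astrocyte markers had the first order and the summed oligodendrocyte markers the second. Among all genes tested each of these orders was found in 19.6%, so they are not particular to the members. Lss and Nsdhl had their highest mean in KO and lowest in WT at 18 months, an order found in 5.19% of all genes. Neighbours in these orders were often not apart: Lss had 105 and 121 CPM in WT at 6 months, overlapping both KO at that age and WT at 18 months, and Srebf2 overlapped in every pair of groups of the same age. The 7 members, Acat2, Pmvk, Idi1, Fdps, Srebf2, Scap and Insig2, were called in none of the 5 comparisons.

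**Figure D4:**
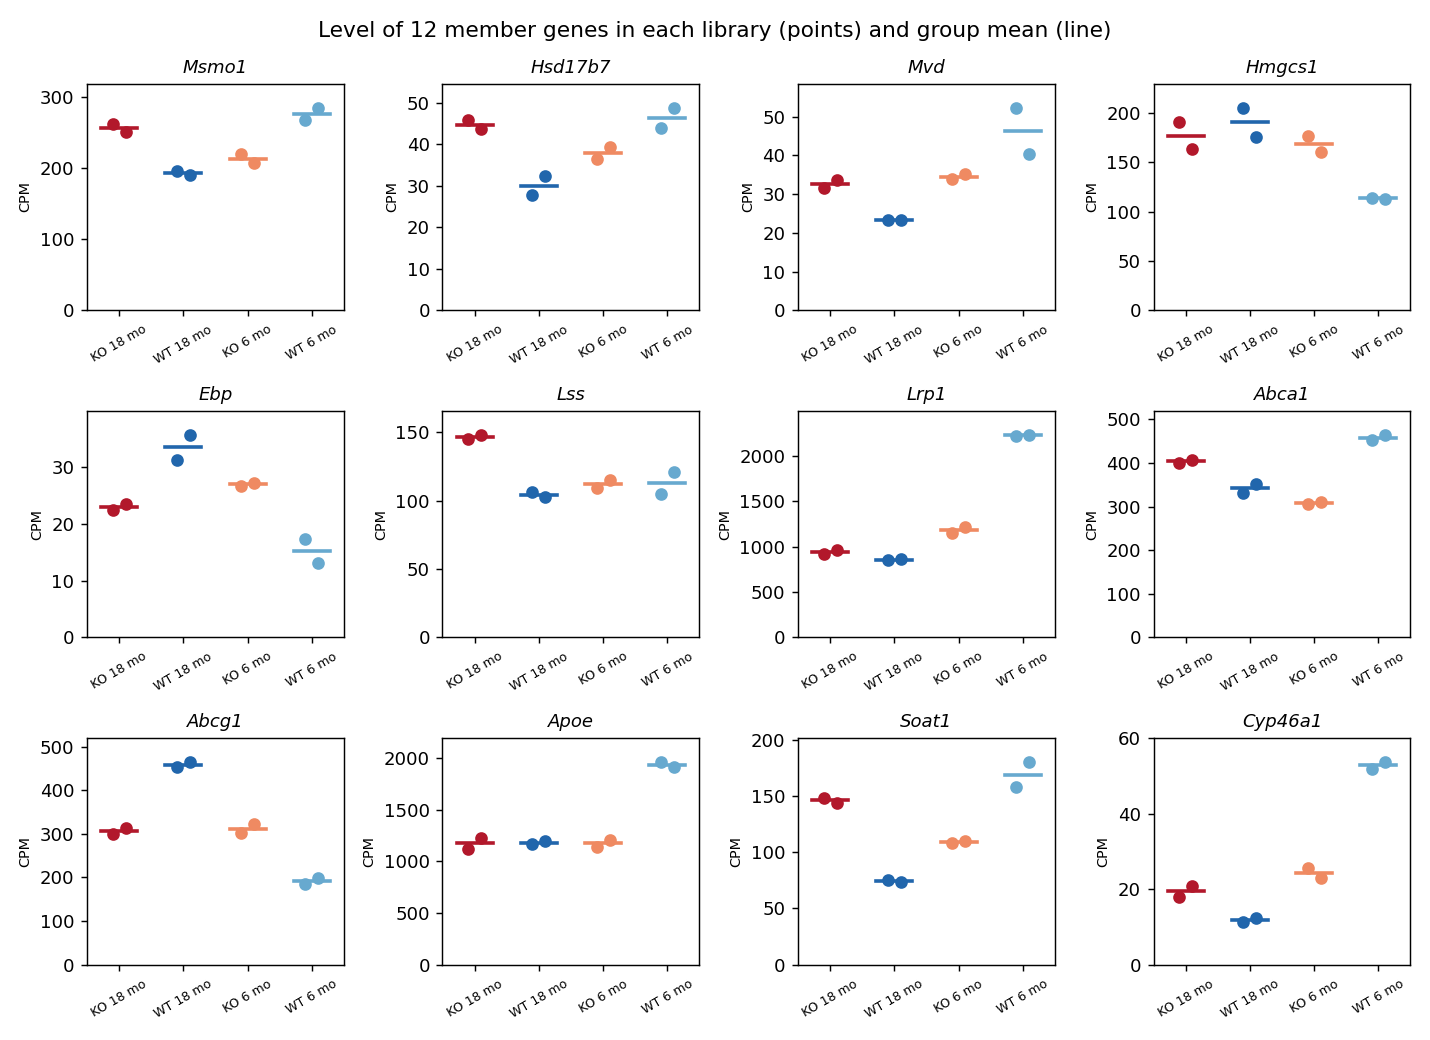
CPM in each library (points) and group means (lines) for 12 members, on axes that start at 0, with KO left of WT within each age. Msmo1, Hsd17b7 and Soat1 are low in WT at 18 months, Ebp and Abcg1 are high there and low in WT at 6 months, and Apoe lies between 1119 and 1229 CPM in every library outside WT at 6 months.

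Other genes of sterol and lipid handling were taken from 8 lists of 49 genes, of which 48 were tested; Ch25h had at most 2 reads in a library. At 18 months 9 rose and 14 fell in KO, at 6 months 15 rose and 12 fell, and the interaction was positive for 13 and negative for 19. That is 47.9%, 56.2% and 66.7% of the 48 called, where 32.1%, 38.8% and 39.1% of all genes were called in these comparisons. Apod, a lipid-binding secreted protein, had 1156 and 1271 CPM in KO, against 2441 and 2510 CPM in WT at 18 months, and 1356 and 1342 CPM in KO, against 485 and 462 CPM in WT at 6 months (log2 -1.03 and 1.51, edgeR adjusted p = 7.31e-13 and 1e-15). Fads2, a fatty acid desaturase, went the opposite way, with 143 and 141 CPM in KO, against 75 and 76.3 CPM in WT at 18 months, and 135 and 138 CPM in KO, against 282 and 264 CPM in WT at 6 months (1.87-fold higher and 1.99-fold lower, edgeR adjusted p = 9.39e-11 and 4.17e-12). Clu, which encodes the lipoprotein component clusterin, had 434 and 504 CPM in KO, against 240 and 245 CPM in WT at 18 months (edgeR adjusted p = 5.95e-11), and Scd2, the brain stearoyl-CoA desaturase, had 5988 and 6097 CPM in KO, against 2923 and 2595 CPM in WT at 6 months (edgeR adjusted p = 3.62e-14). With age 23 rose and 14 fell in WT, where Apod, Scd2 and Fads2 had the smallest p (log2 2.39, 1.66 and -1.85), and 9 rose and 9 fell in KO (77.1% called in WT and 37.5% in KO, against 59.0% and 31.7% of all genes). In KO the smallest p of these lists were those of Acaca (acetyl-CoA carboxylase, log2 0.48), Acss2 (acetyl-CoA synthetase, 0.40) and Nr1h2 (a liver X receptor, -0.56). Of the 11 fatty acid synthesis genes 2 rose and 3 fell at 18 months and 4 rose and 3 fell at 6 months in KO (45.5% and 63.6% called, against 32.1% and 38.8% of all genes). The liver X receptor list held Nr1h2 and Nr1h3, which encode these receptors, and Rxra, Rxrb and Mylip, which do not. Of its 5 genes 1 rose and 2 fell at 18 months and 0 rose and 1 fell at 6 months, too few to read against those shares.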

How the data were processed

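Sorted cortical cells were profiled by RNA-seq in 8 libraries, 2 per group. The authors deposited raw read counts per Ensembl gene, and the submitters' processing notes name featureCounts 1.5.0-p1, STAR 2.5.2a, CASAVA 1.8.2 and mm10. For strand, multi-mapped reads and annotation release the setting was not given in the sources used here, so genes with overlapping or antisense partners are uncertain. Symbols came from GENCODE M21 on the same build (GRCm38), which named 99.8% of IDs, and promoter sequences from RefSeq (GRCm38.p6). The test was edgeR's quasi-likelihood F test (version 4.0.16, R 4.3.3) after TMM normalization, on the 18205 genes that filterByExpr kept at its minimum of 10 counts, with Benjamini-Hochberg adjustment over them and a threshold of 0.05, with all 4 groups in 1 model of 4 residual and 19.1 prior degrees of freedom. Intervals are 95% t intervals on 23.1 degrees of freedom. CPM are relative to TMM-adjusted totals, and mean log2 CPM used a prior count of 2. No pair of replicates was 1 library deposited again (chi-square of at least 2.62 per gene). The members, lists and tests were chosen with earlier results of these data known. Named are all members, the called ones with every value, and up to 3 other pathway genes per comparison with the smallest p. The script was tested on simulated data. Alternatives were DESeq2 1.42.0 and its size factors, other filters and gene sets, pairwise fits, a replicate block and leaving out each library.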

Additional observations from a re-analysis of the deposited data

Results flagged for a closer look

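The response to genotype differed between the ages for 17 members (58.6%) by the interaction test, the log2 fold change of KO over WT at 18 months minus that at 6 months (edgeR adjusted p under 0.05). Of all genes tested 39.1% were called for this interaction, 18.4% positive and 20.7% negative. Among synthesis enzymes the interaction was positive for Mvd 0.91, Sqle 0.42, Lss 0.49, Cyp51 0.25, Tm7sf2 0.94, Msmo1 0.79, Nsdhl 0.44 and Hsd17b7 0.85. Among genes of transport, storage and turnover it was positive for Lrp1 1.05, Abca1 0.81, Apoe 0.71, Soat1 1.61 and Cyp46a1 1.81. It was negative for Hmgcs1 -0.67, Ebp -1.39, Sc5d -0.53 and Abcg1 -1.28. WT at 6 months was the group that stood apart in the correlation of libraries, and each interaction uses it. The interactions of Cyp51 and Nsdhl were lost in 11 and 6 of 13 alternatives. Their adjusted p ranged from 0.0192 to 0.206 for Cyp51 and from 0.019 to 0.175 for Nsdhl. The other 15 kept their direction and their call in every alternative run.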

How the results depend on the processing

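No member's call changed direction in the alternatives run. Of the members called, 11 of 13 (KO against WT at 18 months), 10 of 17 (at 6 months), 15 of 17 (age in WT), 5 of 10 (age in KO) and 15 of 17 (interaction) kept their call in every alternative. For KO against WT at 6 months and for age in KO, leaving out 1 library of the groups compared gave fewer members called. Fewer genes were then also called over all genes. DESeq2 gave 6 members for age in KO, where it called 3449 of 18450 genes, against 5775 of 18205 in the main test. Synthesis minus transport, with Soat1 and Cyp46a1 added, was -0.06 for KO against WT at 18 months (reversed, from 0.24), 0.55 at 6 months (0.39) and 0.66 for age in WT (0.22). With medians over genes it was 0.30 at 18 months, 0.32 at 6 months, 0.12 for age in WT and 0.10 for age in KO (0.07). Leaving out 1 library gave 0.2 to 0.28 at 18 months, 0.37 to 0.4 at 6 months, 0.18 to 0.25 for age in WT and 0.04 to 0.1 for age in KO. A replicate block gave 16 members called for KO against WT at 18 months (6322 of all genes, against 5844 in the main test). At 6 months it gave 17 (7421, against 7067). It gave 18 for age in WT (11005, against 10748) and 13 for age in KO (6301, against 5775). For the interaction it gave 18 (7494, against 7126). Replicate numbers gave little sign of pairing: deviations of same-numbered libraries correlated at -5.24e-06 to 0.0758 over the 6 pairs of groups. Not every library correlated best with its own number. Correlations this small do not exclude a shared batch. Idi1 had 14 to 57 reads per library and the widest intervals of the members. The causes of these shifts were not tested.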
